A study of Mus musculus with 4 samples.

Results

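Sox transcription factors were followed through every cell class and both genotypes of a single-cell RNA-seq study of the mouse embryo. They were taken by gene symbol, as the 10 rows named Sox1, Sox2, Sox3, Sox4, Sox7, Sox9, Sox11, Sox17, Sox18 and Sox21 among the 31055 genes of the count tables. The rule itself uses no measured value. The 10 genes, like the gene lists used below, were however chosen with earlier results of these data known. Another 10 Sox genes of the tables were kept apart and are given at the end.

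Sox proteins bind DNA through a domain of the high mobility group type, which bends the helix, and most act together with a partner factor that differs between cell types. Members with like sequences form groups. Sox1, Sox2 and Sox3 (SoxB1) are activators that keep neural progenitors undifferentiated, and Sox21 (SoxB2) is a repressor that is known to act against them. Sox4 and Sox11 (SoxC) are found in many embryonic progenitors, in mesenchyme and in young neurons. Sox9 (SoxE) acts in neural crest, notochord, gut and cartilage, and Sox7, Sox17 and Sox18 (SoxF) act in the endothelium, with Sox17 also a regulator of definitive endoderm. In the tail end of the embryo, Sox2 together with the T-box factor T marks neuromesodermal progenitors, which give rise to spinal cord and to paraxial mesoderm.

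The cells came from the caudal part of C57BL/6 embryos at embryonic day 8.5, at the 6 to 7 somite stage, while the posterior neural tube was still open. WT cells were 1 pool from 5 embryos, and Grhl3-null cells were 1 pool from 3 embryos of crosses between Grhl3+/- mice. Grhl3-null embryos lack the transcription factor Grhl3 in every cell. The study places Grhl3 at this stage mainly along the caudal neural plate border, with low levels in neuromesodermal progenitors and neuroepithelium. Its expression reaches the whole surface ectoderm only later. Each pool was run as 2 libraries, so that p-values measure the spread between 2 runs of the same cells and hold nothing of the spread between embryos. After filtering, 5459 and 5116 WT cells and 4842 and 4781 Grhl3-null cells remained, with between 209833527 and 226723903 transcripts (unique molecular identifiers, UMIs) per library and a median of 33391 to 38070 UMIs per cell. UMIs of Grhl3 itself numbered 878 and 803 in WT and 12 and 14 in Grhl3-null.

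Clustering without any Sox gene gave 17 clusters in 15 classes, of which 14 took a name from marker genes and carry the ending "-like". The class that joins surface ectoderm with the neural plate border is called surface/border-like. The names were rebuilt from markers and can differ from those of the study. Values are CPM, the UMIs of a gene over all UMIs of the class in a library, scaled to a common total. The kit counts molecules at their 3′ end, so gene length does not enter the CPM. Genotypes also differed in the cells that they contributed. By Xist and 4 Y-linked genes, 23.1% and 23.6% of WT cells and 47.0% and 48.1% of Grhl3-null cells were male, and in the neuroepithelium-like class the male share was 12.1% and 14.8% against 70.1% and 72.7%. Cells with a UMI of a posterior Hox gene, which are expressed towards the tail end, made up 41.3% and 41.9% of WT and 21.0% and 19.2% of Grhl3-null cells. Since male and female cells come from different embryos of a pool, sex was used as a handle on the embryos, and values split by sex or by posterior Hox UMIs stand beside many of the genotype differences.

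Of the 10 genes, 5 had an entry in the RefSeq table of start-site sequences (GRCm38.p6, the same coordinates as mm10). The 250 bases before the RefSeq start of Sox2 and of Sox21 are shown, as an activator and a repressor of the family that both rose, as did Sox1 and Sox3, in the paraxial mesoderm-like cells of Grhl3-null embryos. Both are read 5′ to 3′ along the gene, Sox2 on the plus strand at chr3:34649745-34649994 and Sox21 on the minus strand at chr14:118237031-118237280. Capitals mark matches, on either strand, to 5 short motifs: the Sox cores ACAAAG and AACAAT, the GRHL palindrome AACCGGTT, the CCAAT box CCAAT and the GC box GGGCGG.
Sox2: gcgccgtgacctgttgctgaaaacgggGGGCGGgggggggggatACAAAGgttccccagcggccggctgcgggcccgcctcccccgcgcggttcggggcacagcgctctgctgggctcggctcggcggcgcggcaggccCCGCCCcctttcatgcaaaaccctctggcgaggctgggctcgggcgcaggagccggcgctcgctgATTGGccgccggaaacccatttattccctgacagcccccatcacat
Sox21: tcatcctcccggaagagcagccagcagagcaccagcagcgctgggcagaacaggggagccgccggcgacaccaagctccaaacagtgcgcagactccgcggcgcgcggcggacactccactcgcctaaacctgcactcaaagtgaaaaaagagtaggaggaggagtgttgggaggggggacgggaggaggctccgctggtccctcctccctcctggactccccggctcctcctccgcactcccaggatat
The Sox2 stretch held ACAAAG at position -206 from the start, GC boxes at -223 and, on the other strand, at -111, and a CCAAT box on the other strand at -46, and the Sox21 stretch held none of the 5 motifs. In 32851 windows of 300 bases over mouse start sites, ACAAAG was found in 18.7%, AACAAT in 10.7%, the CCAAT box in 37.4%, the GC box in 35.7% and AACCGGTT in 0.146%. No window of the 5 matched Sox genes held AACCGGTT. Both windows were rich in G and C, at 66.3% for Sox2 and 65.7% for Sox21, against a median of 52.7% over all windows.

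The genes lie apart from each other on mm10, by the GENCODE annotation. Sox2 (chr3:34650405-34652461, plus strand) lies inside the long non-coding gene Sox2ot and Sox1 (chr8:12395295-12400126, plus strand) inside Sox1ot. Sox3, the X-linked member, is at chrX:60891366-60893430 on the minus strand. Sox21 (chr14:118233232-118237030, minus strand) and Sox4 (chr13:28948919-28953713, minus strand) overlap the antisense genes Gm4675 and Gm26735, which the tables count separately. The remaining genes are Sox11 (chr12:27334264-27342574, minus strand), Sox9 (chr11:112782224-112787760, plus strand), Sox17 (chr1:4490931-4497354, minus strand), Sox18 (chr2:181669836-181671640, minus strand) and Sox7 (chr14:63943673-63950732, plus strand).

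In WT embryos the SoxB1 genes were highest in neural and germ cell classes. Sox1 stood at 36.5 and 35.8 CPM in the 2 WT libraries of the neuroepithelium-like class, which held 64.4% of its WT UMIs, and at 7.80 and 6.59 CPM in the neuromesodermal progenitor-like class. No other class reached the level of the neuromesodermal class, and the unnamed cluster led by Lefty2, Ppp1r14a and Spin2c came next at 4.05 and 6.08 CPM. Sox2 was broader. Its level was 236 CPM in both libraries of the neuroepithelium-like class and 129 and 131 CPM in the neuromesodermal progenitor-like class, which together held most of its WT UMIs (39.8% and 40.7%). It was 247 and 296 CPM in the primordial germ cell-like class, which had only 14 and 5 WT cells. Levels of Sox2 between 17.2 and 37.5 CPM were found in the unnamed, notochord-like, surface/border-like, gut-like and paraxial mesoderm-like classes, where the ranges of the first 4 in this order overlap their neighbours. Sox3 followed Sox2, with 74.4 and 82.2 CPM in the neuroepithelium-like class and 40.5 and 39.2 CPM in the neuromesodermal progenitor-like class. The repressor Sox21 was at 24.8 and 33.0 CPM in the neuroepithelium-like class, where 64.8% of its UMIs lay, and its second class was the gut-like one with 6.60 and 5.79 CPM. Thus the neuroepithelium-like class was the highest or second highest for all 4 SoxB genes, and Sox2 and Sox3 stood much nearer to it in neuromesodermal progenitor-like cells than Sox1 and Sox21 did.

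The SoxC genes were found in almost every class. Sox4 peaked in the notochord-like class, at 662 and 683 CPM, ahead of the gut-like class at 366 and 358 CPM and the paraxial mesoderm-like class at 315 and 314 CPM. Sox11 peaked in the Mesenchyme 2-like class, at 480 and 506 CPM, and the neuroepithelium-like class (421 and 443 CPM) overlapped the intermediate mesoderm-like class (427 and 426 CPM). Both were lowest in the erythroid-like class, at 30.3 and 7.55 CPM for Sox4 and 39.8 and 21.1 CPM for Sox11. Sox9, the SoxE member, stood at 255 and 233 CPM in the notochord-like class. It was 58.7 and 56.9 CPM in the gut-like class and 48.2 and 58.3 CPM in the intermediate mesoderm-like class, 2 levels that overlap. In the neuroepithelium-like class its WT level was 8.05 and 11.2 CPM.

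Of the SoxF genes, Sox7 and Sox18 were nearly restricted to the endothelium-like class. Sox7 had 83.4 and 82.3 CPM there and 93.1% of its WT UMIs, and the highest value of any library elsewhere was 0.652 CPM. Sox18 had 133 and 106 CPM there and 88.6% of its UMIs, with the notochord-like class next at 3.79 and 5.51 CPM. Sox17, the member that also acts in endoderm, was divided between the endothelium-like class, at 108 and 122 CPM, and the gut-like class, at 85.6 and 89.7 CPM, which has more cells and held 53.7% of its UMIs. Outside these classes Sox17 was highest in the primordial germ cell-like class, at 12.2 and 37.0 CPM from 15 UMIs in all.

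**Figure D1:**
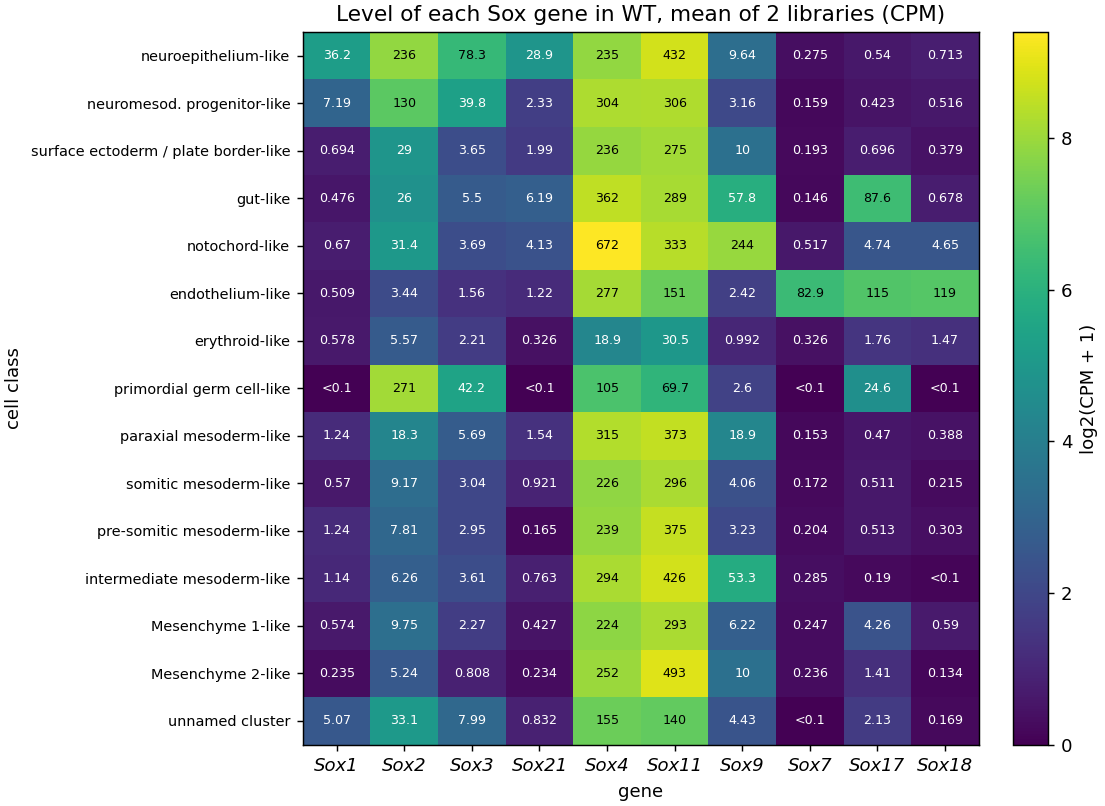
Level of each Sox gene (columns) in each of 15 cell classes (rows) in WT, as the mean CPM of 2 libraries, coloured by log2(CPM + 1). The neuroepithelium-like row holds the highest Sox1, Sox3 and Sox21, the notochord-like row the highest Sox4 and Sox9, and the endothelium-like row the highest Sox7, Sox17 and Sox18.

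Shares of cells with at least 1 UMI gave a like picture once each cell had been thinned to 7500 UMIs. Intervals are 95% Clopper-Pearson intervals. Beside a count of 0 the limit is instead the share that 3 counts would give. Both cover counting error only. Sox2 was detected in 79.9% (76.1 to 83.3) and 80.7% (76.8 to 84.2) of WT neuroepithelium-like cells and in 52.4% (48.9 to 55.8) and 54.3% (50.8 to 57.8) of neuromesodermal progenitor-like cells, against 98.4%, 98.9%, 86.9% and 87.0% before thinning. In the surface/border-like class the thinned share was 16.4% (12.0 to 21.6) and 13.5% (9.26 to 18.6). Endothelium-like cells, which should lack Sox2, gave 1.32% (0.16 to 4.67) and 3.23% (1.06 to 7.37) at like depth (median 38962 and 35643 UMIs, against 34745 and 35401 in the neuroepithelium-like class), so the Sox2 of the surface class was above this background. Sox9 was detected in 68.8% (55.9 to 79.8) and 64.0% (52.1 to 74.8) of thinned notochord-like cells and in 4.37% (2.76 to 6.55) and 3.04% (1.67 to 5.04) of neuroepithelium-like cells. It was seen in 0 of 68 and 0 of 50 thinned erythroid-like cells, which allows shares of up to 4.41% and 6.0%, a limit that reaches the neuroepithelial share.

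In thinned endothelium-like cells Sox7 was detected in 46.1% (37.9 to 54.3) and 49.0% (40.9 to 57.2), Sox17 in 50.0% (41.8 to 58.2) and 51.6% (43.5 to 59.7), and Sox18 in 65.1% (57.0 to 72.7) and 50.3% (42.2 to 58.4). In neuroepithelium-like cells the same genes gave 0 of 503 and 0 of 461 cells for Sox7 (up to 0.596% and 0.651%), 0.199% and 0.651% for Sox17, and 0.596% and 0.868% for Sox18. The 3 genes were found in the same cells about as often as their separate shares give by multiplication. Over the 307 WT endothelium-like cells, Sox7 and Sox17 were both detected in 24.8% (product of shares 24.2%), Sox7 and Sox18 in 26.7% (27.4%), and Sox17 and Sox18 in 31.3% (29.3%). The same held for Sox2 and Sox3 in the WT neuroepithelium-like class, at 32.7% against 31.2%. Sox2 and Sox17 in gut-like cells were both detected in 6.32% of WT cells against a product of 4.31%, and in 4.57% of Grhl3-null cells against 2.40%.

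Within the neuromesodermal progenitor-like class the SoxB1 genes varied with T. Cells with a T UMI (740 and 706 in WT) had 118 and 122 CPM of Sox2, and those without (100 and 89 cells) had 216 and 223 CPM. Sox1 was 6.27 and 5.58 CPM with T and 20.7 and 16.7 CPM without, and Sox3 was 37.5 and 38.0 CPM against 66.2 and 50.6 CPM. Sox4 ran the other way, at 306 and 323 CPM with T and 201 and 213 CPM without. None of these ranges overlapped, and the 2 groups of cells come from the same libraries, so the values are given as a description.

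Within the neuroepithelium-like class the genes varied with 2 homeobox genes of the dorsal and ventral neural tube. Cells with a UMI of the ventral gene Nkx6-1 and none of the dorsal gene Pax3 had 287 and 269 CPM of Sox2, 100 and 105 CPM of Sox3 and 34.1 and 45.6 CPM of Sox21 in WT. Cells with Pax3 and no Nkx6-1 had 200 and 209 CPM of Sox2, 50.3 and 51.0 CPM of Sox3 and 17.2 and 21.8 CPM of Sox21. Sox9 was low in the Nkx6-1 cells, at 2.69 and 4.33 CPM, and higher in the Pax3 cells, at 15.5 and 25.6 CPM. The 3 SoxB genes were thus higher on the ventral side and Sox9 on the dorsal side, where neural crest arises. In Grhl3-null cells Sox9 was 63.9 and 73.9 CPM in the Pax3 cells and 6.07 and 8.09 CPM in the Nkx6-1 cells. Sox2 and Sox9 were both detected in 5.73% of thinned Grhl3-null neuroepithelium-like cells, against a product of shares of 7.38%.

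**Figure D2:**
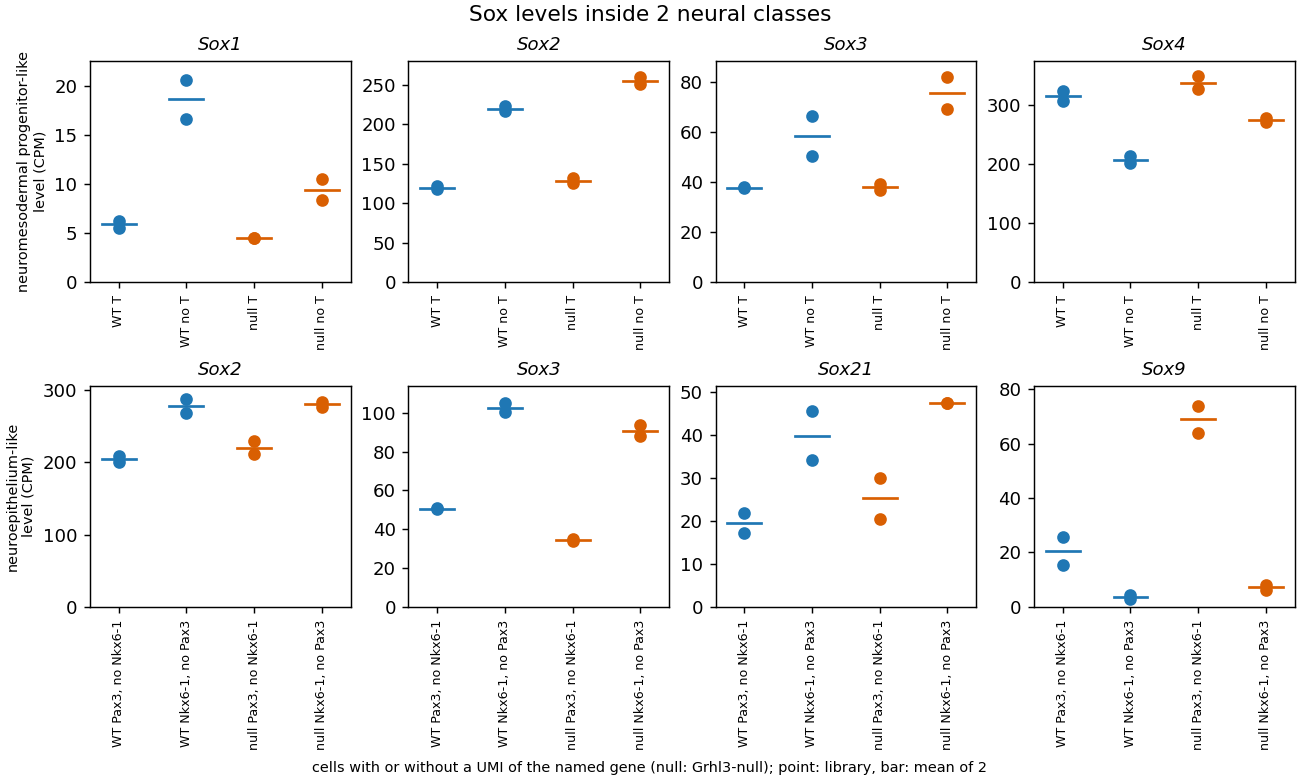
Sox levels (CPM, linear axes from 0) within the neuromesodermal progenitor-like class, split by a UMI of T (upper row), and within the neuroepithelium-like class, split into cells with Pax3 and no Nkx6-1 or the reverse (lower row). Points are libraries (2 per genotype), bars are means, WT in blue and Grhl3-null in orange. Sox2 is higher in cells without T in both genotypes, and Sox9 is highest in the Pax3 cells of Grhl3-null embryos, at 63.9 and 73.9 CPM.

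The genes whose WT level followed each member most closely over the 15 classes were found by Pearson's r of log2(CPM + 1) over 10008 genes with at least 10 CPM in some class. Classes share libraries and differ in depth, so r is a description. For Sox1 these were Neurog2, a driver of neuron formation (0.985), Olig3 (0.977) and Fam181a (0.964). Sox2 and Sox3 were each among the closest to the other (0.943), beside Mkrn1 (0.932) and Tesk2 (0.902) for Sox2 and Fzd9 (0.954) and H2-Ke6 (0.930) for Sox3. Sox21 had looser neighbours, Nrcam (0.893) and Nkx2-9 (0.890). Sox4 was followed by Nxf1 (0.972), Ralgps2 (0.967) and Csnk1e (0.959), Sox11 by Vezf1 (0.982), Hp1bp3 (0.972) and Socs6 (0.967), and Sox9 by Bicc1 (0.894), Sema5a (0.880) and Ddit4l (0.871). Of the SoxF genes, Sox7 was followed by Clec1b (0.997), Inpp5d (0.996) and Stab1 (0.996), and Sox18 by Mall (0.961), the connexin gene Gja4 (0.960) and Inpp5d (0.957). Sox17 was followed less closely, by Abcg1 (0.883), Gimap9 (0.865) and Myo6 (0.861).

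Genotypes were compared within each class to ask whether loss of Grhl3 went with other Sox levels. In 13 classes with enough cells, 96 of the 130 pairs of gene and class passed the filter on low counts. Of these, 34 were higher and 6 lower in Grhl3-null (edgeR quasi-likelihood test, Benjamini-Hochberg adjusted p under 0.05 over all genes of a class). That is 41.7% of tested pairs, against 12.6% of the 154469 pairs of all genes (5.91% higher and 6.7% lower). By gene, Sox9 was higher in 8 of 12 classes and lower in none, Sox4 higher in 4 of 13, Sox21 in 4 of 8, and Sox1, Sox2, Sox3 and Sox11 moved both ways in different classes. Sox17 was higher in 1 class and lower in 1 of 10. By edgeR, Sox7 was called in none of 2 and Sox18 in none of 6 classes, with 0 and 1 at an unadjusted p under 0.05 and none by DESeq2. In the paraxial, somitic and surface/border-like classes and over all cells, where edgeR called no member lower, 0 were lower at an unadjusted p under 0.05 and 0 by DESeq2. DESeq2 gave 19 higher and 6 lower pairs, all among the 40, and no adjusted p for 3 of them. Of the 96 tested pairs, 12 were called with a change of at least 2-fold, beside 2061 (1.33%) of the 154469 pairs of all genes. With the sex of the cell as a term in the fit, 8 of the 34 called pairs that could be fitted kept their call, and without posterior Hox cells 31 of 40 did. The fit with sex took the male and female sums of a library as separate samples, without a term for the library. Of the 32 called pairs tested in male and in female cells, 19 had the same sign in both sexes, and 4 were called in both with the same sign, namely Sox2 in the gut-like class and Sox2, Sox3 and Sox21 in the paraxial mesoderm-like class.

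**Figure D3:**
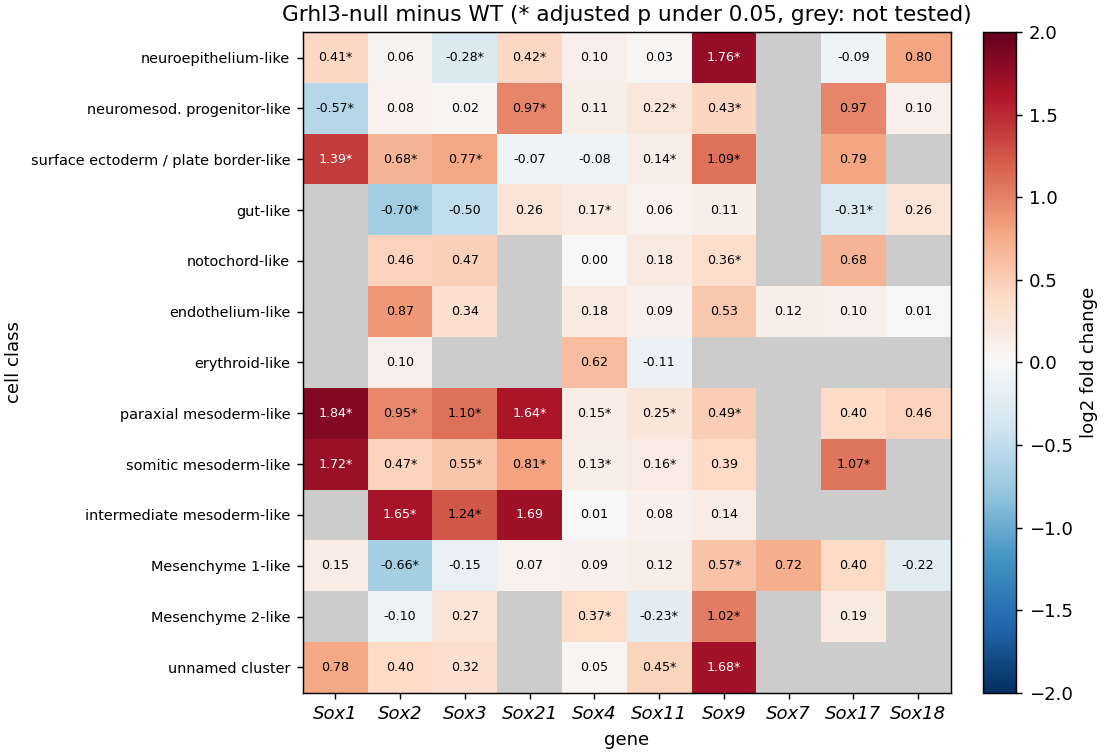
Log2 fold change of Grhl3-null over WT for each Sox gene (columns) in each of 13 tested classes (rows). An asterisk marks an adjusted p under 0.05 and grey a gene that did not pass the filter. The paraxial and somitic mesoderm-like rows each hold 7 genes that were higher and none that was lower, and the endothelium-like row holds none.

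In the neuroepithelium-like class Sox9 was higher in Grhl3-null and the SoxB genes split. Sox9 was 8.05 and 11.2 CPM in WT and 30.5 and 35.8 CPM in Grhl3-null, with no overlap, a log2 fold change of 1.76 (SE 0.109, edgeR adjusted p = 1.49e-08). Sox1 was 36.5 and 35.8 CPM against 48.1 and 49.8 CPM (0.41, SE 0.0473, edgeR adjusted p = 1.41e-05), and Sox21 was 24.8 and 33.0 CPM against 41.5 and 36.8 CPM (0.42, SE 0.0928, edgeR adjusted p = 0.00458). Sox3 was lower, at 74.4 and 82.2 CPM against 65.6 and 65.0 CPM (-0.28, SE 0.0483, edgeR adjusted p = 0.000607). Sox2 stood at 236 CPM in both WT libraries and at 247 and 253 CPM in Grhl3-null, which did not pass the test (0.06, SE 0.0347, edgeR adjusted p = 0.264). Nor did Sox4, at 220 and 251 CPM against 255 and 259 CPM, or Sox11, at 421 and 443 CPM against 440 and 455 CPM. In this class 9.87% of all genes were higher and 11.3% lower, and of the 9 tested members 3 and 1.

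The sex of the cells went with these differences. Sox9 was 38.2 and 40.0 CPM in male Grhl3-null neuroepithelium-like cells, and 9.46 and 7.51 CPM in female ones, against 15.6 and 9.69 CPM in male and 6.82 and 10.3 CPM in female WT cells. Its fold change was therefore 1.72 in male cells (edgeR adjusted p = 1.05e-10) and -0.03 in female cells (edgeR adjusted p = 0.957). Sox21 had its rise in female cells (1.17, edgeR adjusted p = 1.61e-08), where it went from 22.2 and 24.1 CPM to 58.3 and 47.9 CPM, and fell in male cells by 0.38 on the log2 scale (edgeR adjusted p = 0.0157). Sox3 fell by 0.76 on the log2 scale in male cells (edgeR adjusted p = 7.91e-09) and was 0.13 higher in female cells (edgeR adjusted p = 0.21). Sox1 rose in male cells (0.52, edgeR adjusted p = 0.00135, against -0.02 in female cells, edgeR adjusted p = 0.913), and Sox2 fell in male cells (-0.17, edgeR adjusted p = 0.035) and rose in female cells (0.25, edgeR adjusted p = 0.000862). The male and the female fold change differed, by the interaction of genotype and sex, for Sox1, Sox2, Sox3, Sox4, Sox9 and Sox21. This fit also had no term for the library, and the share of all genes that it called is not given here. A pool of 3 embryos holds few of each sex, so sex and embryo cannot be told apart. In cells with no posterior Hox UMI, Sox9 remained higher (1.20, edgeR adjusted p = 0.000247), at 9.73 and 19.6 CPM against 31.3 and 36.3 CPM, and Sox21 did not pass the test (0.02, edgeR adjusted p = 0.949). Sox21 was also not called by DESeq2 (0.41, adjusted p = 0.28) or at the finer clustering (0.11). The part of sex and of position in these results was not tested.

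**Figure D4:**
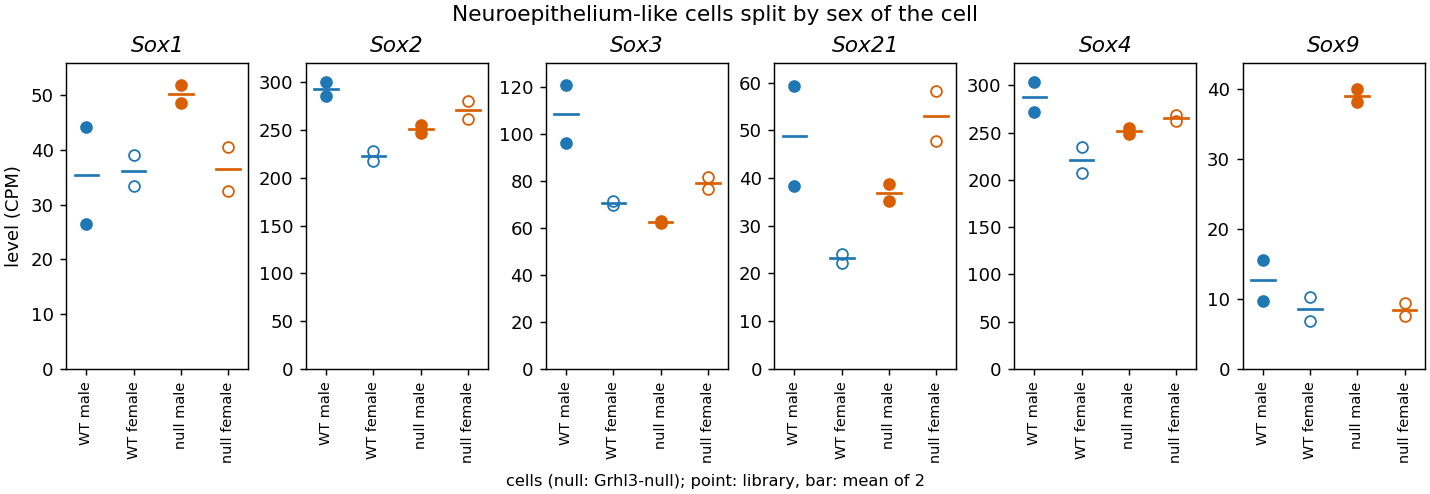
Levels of 6 Sox genes (CPM, linear axes from 0) in neuroepithelium-like cells of WT (blue) and Grhl3-null (orange), male (filled points) and female (open points). Points are libraries (2 per genotype) and bars are means. Sox9 is raised in male Grhl3-null cells, at 38.2 and 40.0 CPM, and Sox21 in female Grhl3-null cells, at 58.3 and 47.9 CPM.

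Genes of neural crest and neural plate border moved in the same class. Of the 12 genes of that list, 9 rose and none fell, with a median log2 fold change of 1.06, beside 0.00528 over all genes. They included Zic1 (2.62, edgeR adjusted p = 4.93e-09), Tfap2b (1.96, edgeR adjusted p = 7.8e-06), Foxd3, an early neural crest factor (1.78, edgeR adjusted p = 1.27e-06), and Tfap2a (1.76, edgeR adjusted p = 6.3e-05). Zic1 and Foxd3 had positive values in male cells (3.29 and 3.40) and negative ones in female cells (-1.59 and -4.88). Of the neural plate and axial progenitor list, 6 of 12 genes rose, among them Olig2 (1.20) and Pax6 (1.04), and 4 fell, among them Fgf8 (-1.99) and T (-1.60), which mark the youngest, most caudal cells. Of the early neuronal list, 2 of 5 tested genes rose, Elavl3 (0.77) and Elavl4 (0.33), and none fell (1 was lower at an unadjusted p under 0.05, and DESeq2 called 0). Elavl3 was 0.39 in cells with no posterior Hox UMI and 0.32 with sex in the fit, and Elavl4 was 0.03 and 0.02.

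In the neuromesodermal progenitor-like class the changes of the Sox genes were small or at low levels. Sox11 was 308 and 305 CPM in WT and 364 and 359 CPM in Grhl3-null (0.22, SE 0.0308, edgeR adjusted p = 0.000665), and kept its call with sex in the fit (0.19, edgeR adjusted p = 0.0162). Sox21 was 2.43 and 2.24 CPM against 5.03 and 4.20 CPM (0.97, SE 0.146, edgeR adjusted p = 0.00102), and also kept it (0.90, edgeR adjusted p = 0.0188). Sox1 was lower, at 7.80 and 6.59 CPM against 5.00 and 4.82 CPM (-0.57, SE 0.112, edgeR adjusted p = 0.00514), with its fall in female cells (-1.08, edgeR adjusted p = 0.000212) and a value of 0.06 in male cells. Under a clustering of log-normalised counts the Sox1 value was 0.72, and without a cluster of this class that was 99.8% WT it was -0.28 and not called. Sox9 passed the test at a low level (3.00 and 3.32 CPM against 4.17 and 4.43 CPM, 0.43, edgeR adjusted p = 0.0361), and lost its call without WT library 1 (0.36), WT library 2 (0.50) or Grhl3-null library 2 (0.40). The defining gene Sox2 was 129 and 131 CPM in WT and 141 and 135 CPM in Grhl3-null, which did not pass the test (0.08, edgeR adjusted p = 0.174). In cells with a T UMI it was 118 and 122 CPM against 132 and 126 CPM. Of all genes in this class 7.54% were higher and 10.5% lower, and of the 9 tested members 3 and 1. In the list of neural plate and axial progenitor genes 3 of 12 rose, including Olig2 (2.31) and Hes5 (0.65), and 3 fell, including Pou5f1, a pluripotency factor (-1.52).

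The genotype effect itself differed between the neuroepithelium-like and the neuromesodermal progenitor-like class for 5 of 9 tested genes, by the interaction of class and genotype in edgeR. The difference in log2 fold change, neuroepithelium-like minus neuromesodermal, was 1.34 for Sox9 (adjusted p = 4.13e-09) and 0.99 for Sox1 (adjusted p = 3.19e-09). It was -0.54 for Sox21 (adjusted p = 0.0112), -0.30 for Sox3 (adjusted p = 0.000328) and -0.18 for Sox11 (adjusted p = 7.82e-05). Of all genes 7.14% had a positive and 6.63% a negative difference. The Sox1 difference changed sign under log-normalised clustering, and neither positive difference was called in male cells. The Sox9 difference was not called at the finer clustering (0.29) or without posterior Hox cells (0.44), DESeq2 did not call Sox3 or Sox21, and without WT library 2 only 1 of the 3 negative differences was called. The male share of the neuroepithelium-like class rose far more than that of the neuromesodermal class (32.4% and 30.6% in WT, 34.8% and 36.6% in Grhl3-null), and its part was not tested.

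In the paraxial mesoderm-like class 7 of 9 tested members were higher and none lower, against 9.78% and 12.5% of all genes, with a member median of 0.489 on the log2 scale beside 0.00821 over all genes. The SoxB genes, which are neural genes in this region, rose most. Sox1 was 1.20 and 1.29 CPM in WT and 4.38 and 4.70 CPM in Grhl3-null (1.84, SE 0.173, edgeR adjusted p = 7.22e-06), and Sox21 was 1.31 and 1.77 CPM against 4.69 and 5.00 CPM (1.64, SE 0.173, edgeR adjusted p = 2.24e-05). Sox3 was 5.71 and 5.67 CPM against 12.6 and 12.3 CPM (1.10, SE 0.0878, edgeR adjusted p = 1.43e-06). Sox2 was 17.2 and 19.4 CPM against 33.9 and 38.2 CPM (0.95, SE 0.0691, edgeR adjusted p = 7.07e-07). All 4 remained far below the neuroepithelium-like level. Sox9 rose from 18.0 and 19.7 CPM to 26.6 and 27.2 CPM (0.49, SE 0.0585), Sox11 from 374 and 371 CPM to 446 and 455 CPM (0.25, SE 0.03), and Sox4 from 315 and 314 CPM to 351 and 357 CPM (0.15, SE 0.0305). The Sox11 value was negative in female cells and the Sox4 value in male cells. The male share of this class was 10.8% and 12.3% in WT and 53.6% and 53.4% in Grhl3-null, and its part was not tested.

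Mixed droplets moved with the SoxB result. Barcodes with UMIs of both Xist and Y-linked genes, which a single cell of either sex should not give, made up 15.9% and 17.8% of WT and 29.6% and 29.0% of Grhl3-null paraxial mesoderm-like cells, and their median depth was 76964 and 83882 UMIs in WT. Sox2 in these barcodes was 40.3 and 35.0 CPM in WT and 47.4 and 57.6 CPM in Grhl3-null. It was 2.81 and 6.66 CPM in male WT cells and 22.3 and 20.5 CPM in male Grhl3-null cells. In female cells it was 10.6 and 13.6 CPM in WT and 20.3 and 19.6 CPM in Grhl3-null. Cells given neither sex and not mixed (9 and 5 in WT, 33 and 44 in Grhl3-null) had 4.12 and 0 CPM against 3.42 and 2.46 CPM. A mixture of cells of the same sex does not show both kinds of UMI and would stay among the male or female cells, and the share of such mixtures was not measured. The summed level of 13 neuroepithelium markers other than Sox genes also rose in the class, from 1105 to 1158 CPM in the WT libraries to 1454 to 1505 CPM in the Grhl3-null libraries. The Sox2 value was 1.5 with scored doublets removed, 0.60 at a finer clustering and 0.42 under log-normalised clustering. Among the neural plate and axial progenitor genes Pax6 (2.27), Irx3 (1.00), Hes5 (0.69), Nkx1-2 and T rose, and Zic2, Pou5f1 and Tbx6 fell, and the part of mixed droplets in these values was not tested.

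In the somitic mesoderm-like class 7 of 8 tested members were higher and none lower, against 8.12% and 8.94% of all genes, mostly at low levels, with a member median of 0.511. Sox1 was 0.385 and 0.754 CPM in WT and 1.77 and 2.07 CPM in Grhl3-null (1.72, SE 0.287, edgeR adjusted p = 0.000438). Sox2 was 8.62 and 9.72 CPM against 12.4 and 13.2 CPM (0.47, SE 0.0861, edgeR adjusted p = 0.00106), but fell by 0.51 on the log2 scale in female cells and was -0.02 when Sox genes were kept in the clustering. Sox11 was 294 and 299 CPM against 328 and 337 CPM (0.16, edgeR adjusted p = 0.00163). The other 4 calls were lost when single libraries were left out. Sox3 (0.55) lost its call without WT library 2 (0.52) or Grhl3-null library 1 (0.35), Sox17 (1.07) without WT library 2 (0.81) or Grhl3-null library 2 (0.61), Sox21 (0.81) without WT library 1 (0.72), WT library 2 (0.91) or Grhl3-null library 2 (0.55), and Sox4 (0.13) without WT library 1 (0.11), WT library 2 (0.14) or Grhl3-null library 2 (0.08). Barcodes with both Xist and Y-linked UMIs were 3.86% and 5.30% of the WT cells and 6.42% and 7.76% of the Grhl3-null cells. They held 31.1 and 36.6 CPM of Sox2 in WT and 49.9 and 45.1 CPM in Grhl3-null, and 2.80 and 4.81 CPM against 11.6 and 7.77 CPM of Sox1. Their part in these differences was not tested.

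In the surface/border-like class, where Grhl3 is normally expressed, 5 of 8 tested members were higher and none lower, against 6.25% and 8.65% of all genes, with a member median of 0.728 beside 0.000621 over all genes. Sox2 was 31.1 and 27.0 CPM in WT and 45.1 and 51.0 CPM in Grhl3-null (0.68, SE 0.0833, edgeR adjusted p = 1.71e-05). It kept its call with sex in the fit (0.85, edgeR adjusted p = 0.00286) and in cells with no posterior Hox UMI (0.96), but in cells with one it was 31.1 and 29.0 CPM in WT and 26.4 and 27.6 CPM in Grhl3-null. In female cells it went from 30.9 and 27.9 CPM to 65.5 and 66.6 CPM. Under log-normalised clustering it was 0.24 and not called. Male cells were at 22.6 and 24.6 CPM in WT and 27.3 and 36.2 CPM in Grhl3-null, which did not pass the test (0.41, edgeR adjusted p = 0.0756). Sox9 was 11.9 and 8.14 CPM against 23.7 and 20.1 CPM (1.09, SE 0.141, edgeR adjusted p = 3.34e-05), with 1.39 in male and 0.22 in female cells, and kept its call with sex in the fit (0.81, edgeR adjusted p = 0.0487). In cells with a posterior Hox UMI it was 5.54 and 6.04 CPM in WT and 2.85 and 6.45 CPM in Grhl3-null. Sox3, at 3.31 and 3.99 CPM against 6.87 and 5.84 CPM (0.77, edgeR adjusted p = 0.0115), lost its call without WT library 1 or Grhl3-null library 1 (0.64 each), Sox1 (1.39) without WT library 2 (1.15) or Grhl3-null library 1 (1.13), and Sox11 (0.14) without any 1 of the 4 libraries (0.11 to 0.17).

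Sox2 was higher in Grhl3-null both in the cells of this class with a UMI of Tfap2c and in those without. The study found Tfap2c at the plate border at this stage, and none in surface ectoderm. Cells with a UMI of Tfap2c (148 and 134 in WT) had 40.0 and 33.7 CPM of Sox2 in WT and 58.8 and 64.1 CPM in Grhl3-null. Those without Tfap2c had 8.51 and 9.24 CPM against 31.9 and 35.4 CPM. Tfap2c itself was lower in the Grhl3-null class (-0.84, edgeR adjusted p = 4.08e-06), so the split does not divide like cells in both genotypes. The study, from plots over its own clusters, describes Tfap2c as normal in Grhl3-null embryos. Of the neural crest and plate border list 3 of 10 tested genes rose, Zic5 (0.69), Ets1 (0.61) and Pax3 (0.57), and Pax7 (-0.78) fell with Tfap2c.

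In the gut-like class Sox2 and Sox17 were lower in Grhl3-null. Sox2 was 24.7 and 27.4 CPM in WT and 17.4 and 15.5 CPM in Grhl3-null (-0.70, SE 0.0903, edgeR adjusted p = 1.24e-05). Its fall was seen in male (-0.64, edgeR adjusted p = 0.00638) and female cells (-0.62, edgeR adjusted p = 0.0159) and with sex in the fit (-0.63, edgeR adjusted p = 0.00987), but not in cells with no posterior Hox UMI (0.11, edgeR adjusted p = 0.891). Sox17 was 85.6 and 89.7 CPM against 70.2 and 74.5 CPM (-0.31, SE 0.0545, edgeR adjusted p = 0.000359). In cells with no posterior Hox UMI it fell from 143 and 157 CPM to 73.9 and 74.7 CPM (-1.03, edgeR adjusted p = 7.77e-09), and in cells with one it was 65.9 and 69.7 CPM in WT and 65.5 and 74.4 CPM in Grhl3-null. Cells with a posterior Hox UMI made up 68.1% and 72.0% of WT and 39.1% and 38.2% of Grhl3-null gut-like cells. Sox4 rose from 366 and 358 CPM to 407 and 430 CPM (0.17, edgeR adjusted p = 0.00609), a call lost without Grhl3-null library 2 (0.14). It was 0.02 in female cells and 0.10 in cells with no posterior Hox UMI. Sox9 (58.7 and 56.9 CPM against 59.7 and 68.7 CPM) and Sox21 (6.60 and 5.79 CPM against 7.36 and 7.87 CPM) did not pass the test. Of all genes in this class 9.82% were higher and 10.2% lower, and of the 8 tested members 1 and 2. Among the endoderm genes Gata4 (1.17), Gata6 (0.64) and Foxa1 (0.54) rose, and Trh (-0.69) and Cdx2, a posterior gut factor (-0.23), fell.

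In the endothelium-like class edgeR called none of the 8 tested members (1, Sox4, had an unadjusted p under 0.05, and DESeq2 called 0), and few genes were called at all (0.393% higher, 0.419% lower). Sox7 was 83.4 and 82.3 CPM in WT and 94.1 and 87.2 CPM in Grhl3-null (0.12, SE 0.0708, edgeR adjusted p = 0.549). Sox17 was 108 and 122 CPM against 130 and 119 CPM (0.10, edgeR adjusted p = 0.664), and Sox18 was 133 and 106 CPM against 133 and 109 CPM (0.01, edgeR adjusted p = 0.983), so that the libraries of the genotypes overlapped for both. The endothelial list had 3 of 10 genes higher and none lower, Etv2, an inducer of endothelium (0.49), Tal1 (0.37) and Kdr, the main VEGF receptor (0.29).

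In the notochord-like class Sox9 was the called member, at 255 and 233 CPM in WT and 308 and 316 CPM in Grhl3-null (0.36, SE 0.0829, edgeR adjusted p = 0.0245), against 1.28% of all genes higher and 1.38% lower. It kept the call with sex in the fit (0.49, edgeR adjusted p = 0.0381), lost it without WT library 2 (0.28), by DESeq2 (0.35) and without posterior Hox cells (0.31), and was 0.16 in cells with at most 5% mitochondrial UMIs. Sox4, the other high member of this class, was 662 and 683 CPM against 609 and 739 CPM. Of 4 tested notochord and cartilage genes Col2a1, a collagen gene of cartilage, rose (1.07, edgeR adjusted p = 1.96e-05) and Noto, a notochord factor, fell (-0.41, edgeR adjusted p = 0.0475), though Noto was -0.06 with sex in the fit. In the neuroepithelium-like class Col2a1 was lower (-0.42, edgeR adjusted p = 1.97e-05), with 0.76 in male and -1.37 in female cells.

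Among the other mesoderm classes the Mesenchyme 2-like class showed opposite SoxC changes. Sox4 rose from 252 and 253 CPM to 316 and 336 CPM (0.37, edgeR adjusted p = 7.89e-06) and Sox11 fell from 480 and 506 CPM to 413 and 425 CPM (-0.23, edgeR adjusted p = 0.00034). In male cells Sox4 was 320 and 341 CPM in WT and 327 and 335 CPM in Grhl3-null, and in female cells 231 CPM in both WT libraries against 295 and 341 CPM. Sox11 was 519 and 545 CPM in female WT cells and 318 and 321 CPM in female Grhl3-null cells, but 311 and 328 CPM in male WT and 449 and 465 CPM in male Grhl3-null cells, and its value was 0.08 without posterior Hox cells. Sox9 was 11 and 9.0 CPM against 20.6 and 20.1 CPM (1.02, edgeR adjusted p = 1.11e-05). In cells with no posterior Hox UMI it was 18.9 and 20.4 CPM in WT and 21.5 and 21.4 CPM in Grhl3-null, which did not pass the test (0.14, edgeR adjusted p = 0.7), and in male cells 15.6 and 16.4 CPM against 20.4 and 20.2 CPM (0.34, edgeR adjusted p = 0.254). The male share of this class was 12.8% and 13.6% in WT and 70.7% and 68.4% in Grhl3-null. Background shares were 10.1% higher and 9.89% lower. In the Mesenchyme 1-like class (4.06% and 2.92%) Sox2 fell from 8.87 and 10.6 CPM to 5.23 and 7.08 CPM (-0.66, edgeR adjusted p = 0.00761; -0.27 without posterior Hox cells), and Sox9 rose from 6.95 and 5.49 CPM to 8.62 and 9.80 CPM (0.57, edgeR adjusted p = 0.00895).

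In the intermediate mesoderm-like class (1.52% higher and 1.67% lower) Sox2 rose from 6.78 and 5.74 CPM to 20.7 and 18.3 CPM (1.65, edgeR adjusted p = 2.77e-06), but was 0.47 with Sox genes kept in the clustering and 0.23 under log-normalised clustering, where it was not called. Sox3 rose from 2.64 and 4.59 CPM to 10.1 and 6.60 CPM (1.24, edgeR adjusted p = 0.018), a call lost without WT library 1 (0.89) or Grhl3-null library 1 (0.88). The 12 and 11 Grhl3-null barcodes of this class with both Xist and Y-linked UMIs held 65.7 and 49.2 CPM of Sox2 and 37.8 and 15.6 CPM of Sox3. Sox2 was 8.91 and 8.89 CPM in male and 7.36 and 17.8 CPM in female Grhl3-null cells, against 1.66 and 6.35 CPM in male and 8.28 and 3.96 CPM in female WT cells. The part of the mixed barcodes in these differences was not tested. Sox9, high in this class, was 48.2 and 58.3 CPM against 60.1 and 56.3 CPM. In the unnamed cluster (2.41% and 2.01%) Sox9 rose from 3.12 and 5.75 CPM to 10.9 and 17.2 CPM (1.68, edgeR adjusted p = 0.00685; lost without WT library 1, 1.29, or Grhl3-null library 2, 1.33) and Sox11 from 147 and 132 CPM to 187 and 191 CPM (0.45, edgeR adjusted p = 0.00222; lost without WT library 2, 0.38). In the erythroid-like class (0.256% and 0.186%) edgeR called none of 3 tested members, with 1 at an unadjusted p under 0.05 and 0 by DESeq2, and 4 of 7 haemoglobin genes were lower, with the largest fall in the embryonic gene Hbb-y (-0.92).

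**Figure D5:**
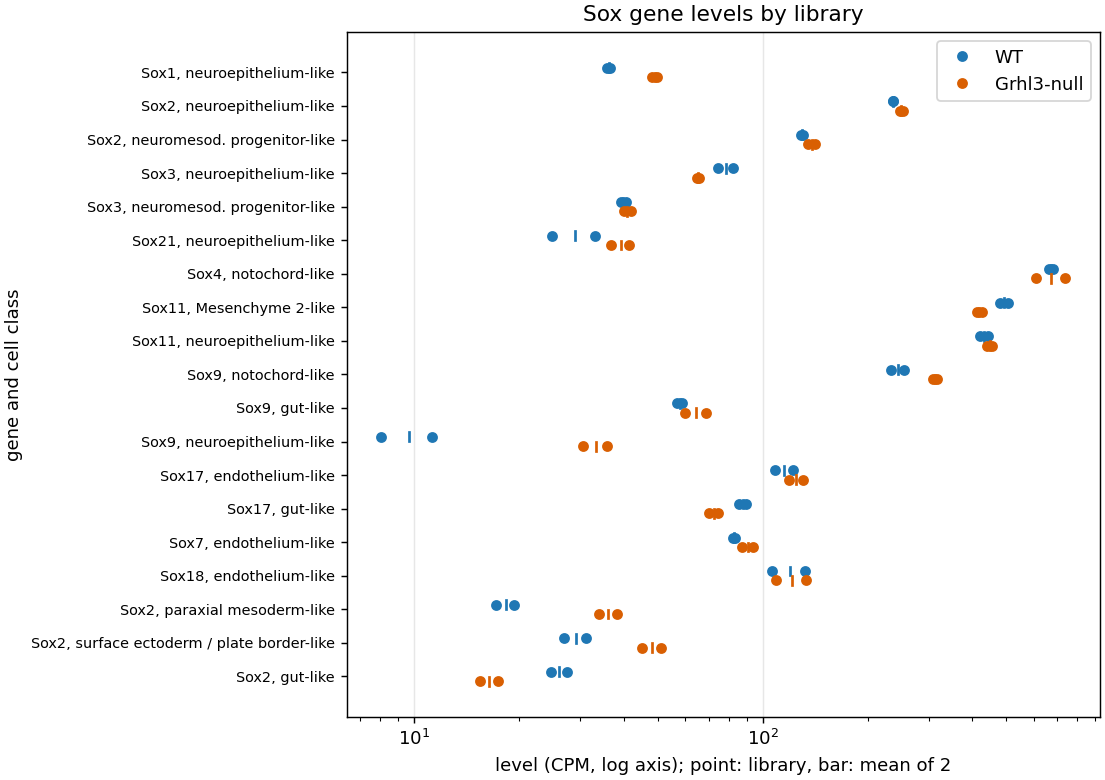
Level of Sox genes in selected classes (rows), in CPM on a log axis. Points are libraries (2 per genotype) and bars are means, WT in blue and Grhl3-null in orange. Genotypes are well apart for Sox9 in the neuroepithelium-like class (8.05 and 11.2 against 30.5 and 35.8 CPM) and overlap for Sox17 and Sox18 in the endothelium-like class.

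Some classes allowed no test. The pre-somitic mesoderm-like class had 510 and 490 WT cells and 4 cells in each Grhl3-null library. In each WT library 98.4% of its cells were female, against 63.9% and 63.8% of all WT cells. A posterior Hox UMI was found in 87.1% and 86.7% of its WT cells. The part of embryo, sex and position in the difference in cell number was not tested. Sox4 was 235 and 243 CPM in this class in WT and 208 and 242 CPM in Grhl3-null, and Sox11 was 368 and 382 CPM against 330 and 377 CPM, on 56 and 88 Grhl3-null UMIs in all. In the primordial germ cell-like class (14 and 5 WT cells, 14 and 26 Grhl3-null cells) Sox2 was 247 and 296 CPM in WT and 290 and 244 CPM in Grhl3-null, which overlap, and Sox11 was 88.5 and 50.9 CPM against 18.6 and 23.6 CPM, which do not.

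Over all filtered cells 9 of the 10 members were higher in Grhl3-null and none lower, where 17.1% of all genes were higher and 18.5% lower. In a sum over a mixture, more cells of a type and more RNA per cell cannot be told apart. Sox21 was 3.67 and 4.43 CPM in WT and 7.08 and 7.01 CPM in Grhl3-null (0.77), Sox9 was 14.1 and 14.8 CPM against 22.0 and 24.6 CPM (0.65), Sox1 was 5.21 and 5.02 CPM against 7.36 and 7.98 CPM (0.56), and Sox2 was 54.0 CPM in both WT libraries against 63.4 and 65.2 CPM (0.22). The smallest changes, of Sox4 (0.13) and Sox11 (0.10), lost their calls without WT library 1, at 0.10 and 0.08. Sox3 did not pass the test (0.07, edgeR adjusted p = 0.108). None of the 9 kept its call with the sex of the cell as a term, and 3 had the same sign in male and female cells. Among the 5 sex-linked genes the 4 Y-linked ones were higher and Xist lower (-0.36) in Grhl3-null.

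The Sox genes outside the 10 were mostly low. Sox12, the third SoxC gene, was higher in Grhl3-null in 8 classes by small amounts, from 0.16 in the neuromesodermal progenitor-like class (34.9 and 36.9 CPM against 41.9 and 39.1 CPM) to 0.69 in the unnamed cluster, and in the neuroepithelium-like class it was 36.8 and 36.6 CPM against 40.4 and 43.8 CPM (0.17). Over all genes 5.91% of tested pairs of gene and class were higher. Values of Sox12 split by sex or by posterior Hox UMIs are not given here. Sox10, a neural crest gene of the Sox9 group, was 0.286 and 0.405 CPM in WT and 0.832 and 1.15 CPM in Grhl3-null neuroepithelium-like cells (1.49, edgeR adjusted p = 0.0139). Sox13 was 7.93 and 6.96 CPM against 12.6 and 11.7 CPM in the paraxial mesoderm-like class (0.68, edgeR adjusted p = 0.000158). Sox6 moved both ways, higher in the surface/border-like class (0.52) and lower in the Mesenchyme 2-like class (-0.47). Over all filtered cells 4 of 9 tested genes of this list were higher and 1, Sox8, was lower (1.49 and 1.48 CPM against 0.964 and 0.901 CPM). Of all genes 17.1% were higher there and 18.5% lower.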

How the data were processed

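Counts of UMIs per gene and cell were deposited by the authors for 4 libraries, made with 10x Genomics 3′ v3.1 chemistry, aligned to mm10 and counted with Cell Ranger 3.0.0, for droplets called as cells and before their own filters. Deposited cells numbered 6186 and 5698 in WT and 6177 and 6178 in Grhl3-null. Of the barcodes, 5 to 7 were shared between any pair of libraries.

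Cells with fewer than 3000 genes, fewer than 7500 UMIs or over 7% of UMIs from mitochondrial genes were left out. They were clustered in Seurat 5.3.0 with sctransform 0.4.2 (R 4.3.3; 3000 variable features without Sox genes, 30 components, 20 neighbours, Louvain resolution 0.4). A class was named from the study's marker lists without their Sox genes, by at least 3 markers among its 30 leading genes, over 1.5 times those of the next type. Scrublet in scanpy 1.11.5 marked under 0.5% of cells as doublets on its own threshold, so doublets were kept and an alternative removed the highest 5% of scores.

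The UMIs of each class were added up in each library and tested with edgeR 4.0.16 (TMM, filterByExpr, quasi-likelihood test, Benjamini-Hochberg adjustment over all genes of a class). Positive log2 fold changes are higher in Grhl3-null. The 2 libraries of a genotype differed by more than counting noise (chi-square over its degrees of freedom was 7.77 in WT and 13.6 in Grhl3-null). Classes under 20 cells in a library were not tested. In simulated neuroepithelium-like sums 83 of 97 genes changed 2-fold and 97 of 97 changed 4-fold were recovered, and in simulated notochord-like sums 72 of 99 and 94 of 95. A cell was male from 2 UMIs of the Y-linked genes upwards if Xist had no more than 2, and female from 3 UMIs of Xist upwards if the Y-linked genes had no more than 1. DESeq2 1.42.0 was an alternative. Levels, shares and figures were made with python 3.11.15, numpy 2.4.6, pandas 2.3.3, scipy 1.17.1 and matplotlib 3.10.9.

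The members and lists were chosen with earlier results of these data known. The genes named were the 10 members, the other Sox genes, up to 4 of the largest changes per list and, per member, the 3 genes most like it. One gene that this rule names is not reported here. Depth limits low genes most, and intervals cover counting error only.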

Additional observations from a re-analysis of the deposited data

Results flagged for a closer look

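The genotype effect (log2 fold change, Grhl3-null over WT) of 5 genes differed between the neuroepithelium-like and the neuromesodermal progenitor-like class by an interaction test. The difference was 0.99 for Sox1, 1.34 for Sox9, -0.30 for Sox3, -0.18 for Sox11 and -0.54 for Sox21. The value for Sox1 changed sign under log-normalised clustering, and that for Sox9 was not called at the finer clustering or without posterior Hox cells.

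The genotype effect also differed between male and female cells (male minus female, interaction of genotype and sex in edgeR, adjusted p under 0.05) in 27 pairs of gene and class. The share of all genes called by this test is not given here, so the count is not read as particular to Sox genes. The fit took the male and female sums of a library as separate samples, without a term for the library. In the neuroepithelium-like class it was 0.55 for Sox1, -0.42 for Sox2, -0.88 for Sox3, -0.38 for Sox4, 1.74 for Sox9 and -1.55 for Sox21. In the neuromesodermal progenitor-like class it was 1.14 for Sox1, 0.34 for Sox2 and -0.16 for Sox11. In the surface/border-like class it was -0.69 for Sox2, -0.35 for Sox4, 1.18 for Sox9 and -0.45 for Sox11. In the paraxial mesoderm-like class it was 1.48 for Sox2, -0.25 for Sox4 and 0.53 for Sox11, and in the somitic mesoderm-like class 1.27 for Sox2 and -0.23 for Sox11. In the Mesenchyme 2-like class it was -0.48 for Sox4, -0.94 for Sox9 and 1.24 for Sox11, and in the Mesenchyme 1-like class -0.30 for Sox11. In the intermediate mesoderm-like class it was 0.96 for Sox9 and 0.72 for Sox11, in the gut-like class 0.54 for Sox11, and in the erythroid-like class, which had few cells, 3.32 for Sox4 and 2.81 for Sox11. Male and female cells come from different embryos of each pool, and how many embryos of each sex a pool held is not stated in the sources used here, so sex and embryo cannot be told apart.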

How the results depend on the processing

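With only 2 libraries of 1 pool per genotype, the counts of calls depended on the fit and on which cells entered it. Of the Sox genes within classes, 34 pairs were higher in the main analysis, 19 by DESeq2, 12 with at least a 2-fold change, 17 in male cells, 21 in female cells, 15 in thinned cells and 6 with sex as a term. Those lower numbered 6, and 0 with at least a 2-fold change, 3 in thinned cells, 3 without posterior Hox cells and 2 with sex as a term. Leaving out 1 library gave 30 to 33 higher and 6 to 7 lower. Over all cells 9 were higher, 0 with at least a 2-fold change, 5 in male cells, 3 in female cells, 0 with sex as a term and 7 to 9 without 1 library, and 0 were lower, but 4 in female cells. Of the differences between the neuroepithelium-like and neuromesodermal classes 2 were positive, 1 with at least a 2-fold change, 0 in male cells, and 1 each at resolution 0.8, under log-normalised clustering and without posterior Hox cells, and 3 were negative, 1 by DESeq2, 0 with at least a 2-fold change, 1 in female cells, 5 under log-normalised clustering and 1 to 3 without 1 library (1 without WT library 2). The cause was not tested, other than that the sex and thinned fits hold fewer pairs or cells. Whether replicate numbers pair the libraries could not be decided. Deviations of same-numbered libraries correlated at 0.231 over genes and those of crossed libraries at -0.231, which mirror each other with 2 libraries per genotype. A fit with a replicate block gave 39 higher and 6 lower within classes, with none of 49 refitted calls lost.

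Signs turned as follows, on the log2 scale. In male cells these were Sox7 (-0.072) and Sox18 (-0.12) in the endothelium-like class, Sox11 in Mesenchyme 2 (0.51), Sox21 in neuroepithelium (-0.38), Sox1 in neuromesodermal progenitors (0.057), Sox4 in paraxial (-0.0067) and somitic mesoderm (-0.017), Sox3 in somitic mesoderm (-0.024), Sox11 in the surface/border-like class (-0.16), and Sox7 (-0.21), Sox17 (-0.084) and Sox18 (-0.19) over all cells. In female cells these were Sox17 (-0.011) and Sox18 (-0.016) in endothelium, Sox1 (-0.024), Sox3 (0.13) and Sox9 (-0.028) in neuroepithelium, Sox9 in neuromesodermal progenitors (-0.28), Sox11 in paraxial mesoderm (-0.11), Sox2 in somitic mesoderm (-0.51), Sox1 (-1.08), Sox2 (-0.22) and Sox11 (-0.12) over all cells, and the class difference of Sox3 (0.14) and Sox21 (0.0585). Sox7 and Sox18 in endothelium, near 0 throughout, turned after thinning (-0.024 and -0.0835) and without posterior Hox cells (-0.0065 and -0.15), Sox18 also with sex as a term (-0.069), at 5% mitochondrial UMIs (-0.071), with doublets removed (-0.054, Sox17 -0.034) and without WT library 2 or Grhl3-null library 1 (-0.14 to 0.18 over the 4 libraries left out). The value for Sox4, notochord-like, also near 0, turned with RLE factors (-0.00017), DESeq2 (-0.00046), no filter (-0.014), the replicate block (-0.0020), 5% mitochondrial UMIs (-0.039), Sox genes kept in the clustering (-0.010) and without WT library 1 (-0.021) or Grhl3-null library 2 (-0.13 to 0.11 over the 4 left out). Without posterior Hox cells Sox2 in gut (0.11) and Sox11 in Mesenchyme 2 (0.075) turned. Other clusterings turned Sox3 in intermediate mesoderm (-0.24), Sox1 in neuromesodermal progenitors (0.72) and its class difference (-0.50) when log-normalised, Sox9 in Mesenchyme 1 (-0.13) and Sox3 (-0.032) and Sox21 (-0.50) in somitic mesoderm at resolution 0.8, and Sox2 in somitic mesoderm (-0.016) with Sox genes kept.

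Among all calls, DESeq2 lost 14 with an adjusted p and kept 37, removal of doublets lost 5 of 54, and the 5% mitochondrial limit lost 2 of 54. The class with the highest WT level was unchanged for 10 of 10 genes, 9 of 10 at resolution 0.8 and 9 of 10 in Grhl3-null libraries, Sox11 being the exception in both.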
